A study of Drosophila melanogaster with 12 samples.

Results

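The genes described here are those of the Decapentaplegic (Dpp) pathway, measured in Drosophila melanogaster eye-antennal discs that overexpress winged eye (wge), whose product is associated with chromatin. They were taken by name: every probe set whose only gene symbol in the platform annotation is dpp, tkv, sax, put, Mad, Med, shn, brk, Dad or magu. This gave 11 probe sets for 9 of the 10 genes, out of 18952 probe sets and 11982 genes with a single-gene probe set in the whole series. No single-gene probe set of brk was found, so brk is not analysed here. Of the 11 probe sets 9 passed the filter on low values and were tested, 1 for each gene. The second probe set of tkv lay between 2.3 and 31.5 and that of shn between 0.8 and 23.5 on all arrays, and neither was tested.

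Each of 12 Affymetrix arrays held RNA from 30 pairs of discs of wandering larvae in the last instar. The 4 genotypes had 3 biological replicates each. The first control carried the driver ey-Gal4 alone and the second the transgene UAS-wge alone. The genotype ey>wge carried both, so that the transgene was driven by regulatory sequence of eyeless (ey). The last genotype, called the allele pair below, was ey>wge in larvae that also carried the alleles Su(var)3-9[1] and Su(var)3-9[2] of a histone H3 methyltransferase gene. No group carried these alleles without ey>wge, so their own effect and an effect that needs winged eye cannot be told apart.

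Dpp is a secreted ligand of the bone morphogenetic protein (BMP) family. It binds a complex of type I and type II serine/threonine kinase receptors, which phosphorylate the transcription factor Mad, and Mad enters the nucleus with its partner Medea (Med). Together with the zinc-finger protein Schnurri (shn) they silence brk, which encodes a repressor of Dpp target genes. In the wing disc Dpp spreads from the boundary between the compartments and patterns the blade. In the eye disc it is made at the margin and in the morphogenetic furrow, where it takes part in starting retinal differentiation.

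The markers of the labelled tissue were present, since 11 of 11 eye-antennal disc markers passed the filter on low values. Their summed signal was 23367 to 29417 in ey-Gal4 discs, 27703 to 31374 in UAS-wge discs, 11535 to 12340 in ey>wge and 9021 to 11864 in the allele pair. The probe set of wge itself read 776 to 951 in ey-Gal4 discs, 801 to 931 in UAS-wge discs, 925 to 1162 in ey>wge, and 875, 672 and 443 in the allele pair. The change in ey>wge against both controls, 0.32 ± 0.17 (SE, log2), did not pass (limma adjusted p = 0.498). In the allele pair against ey>wge it was called lower, with a change of -0.72 ± 0.20 (adjusted p = 0.0358). That call was lost without any one ey>wge array or allele-pair replicate 2 or 3 (adjusted p = 0.0652 to 0.16), with the span trend described below removed (-0.46, adjusted p = 0.0895) and with replicate 1 alone (-0.27, adjusted p = 0.628). Its part in the other differences between these genotypes was not tested. It is not recorded whether the transgene holds the probed sequence. Replicates 2 and 3 of the allele pair stood apart from the other arrays. On the first principal component they lay at 51.6 and 66.8, against 17.2 for replicate 1 of the same genotype and -29.0 to 2.43 for the other 9 arrays. In these 2 replicates genes of longer span (the length of the gene in the genome) also read lower relative to ey>wge, with Spearman correlations across genes of -0.302 and -0.398, against -0.0291 in replicate 1 and -0.0187 to 0.158 in the other 9 arrays. Genes are not independent replicates. Called changes of member and pathway genes in the allele pair are therefore also given with its replicate 1 alone. That fit takes the spread of the single array to be like that of the other genotypes. The marker lists in the allele pair are given from all its replicates only.

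Signals are MAS5 values on a linear scale. Changes are differences of mean log2(signal + 16) with the standard error (SE) or 95% confidence interval of a limma model over all 12 arrays, and a change is called where the p-value, adjusted by Benjamini-Hochberg for the 13817 tests, is under 0.05. Signals of different genes come from different probes and are not compared with each other. In whole discs, fewer cells of a type and less RNA per cell cannot be told apart.

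**Figure D1:**
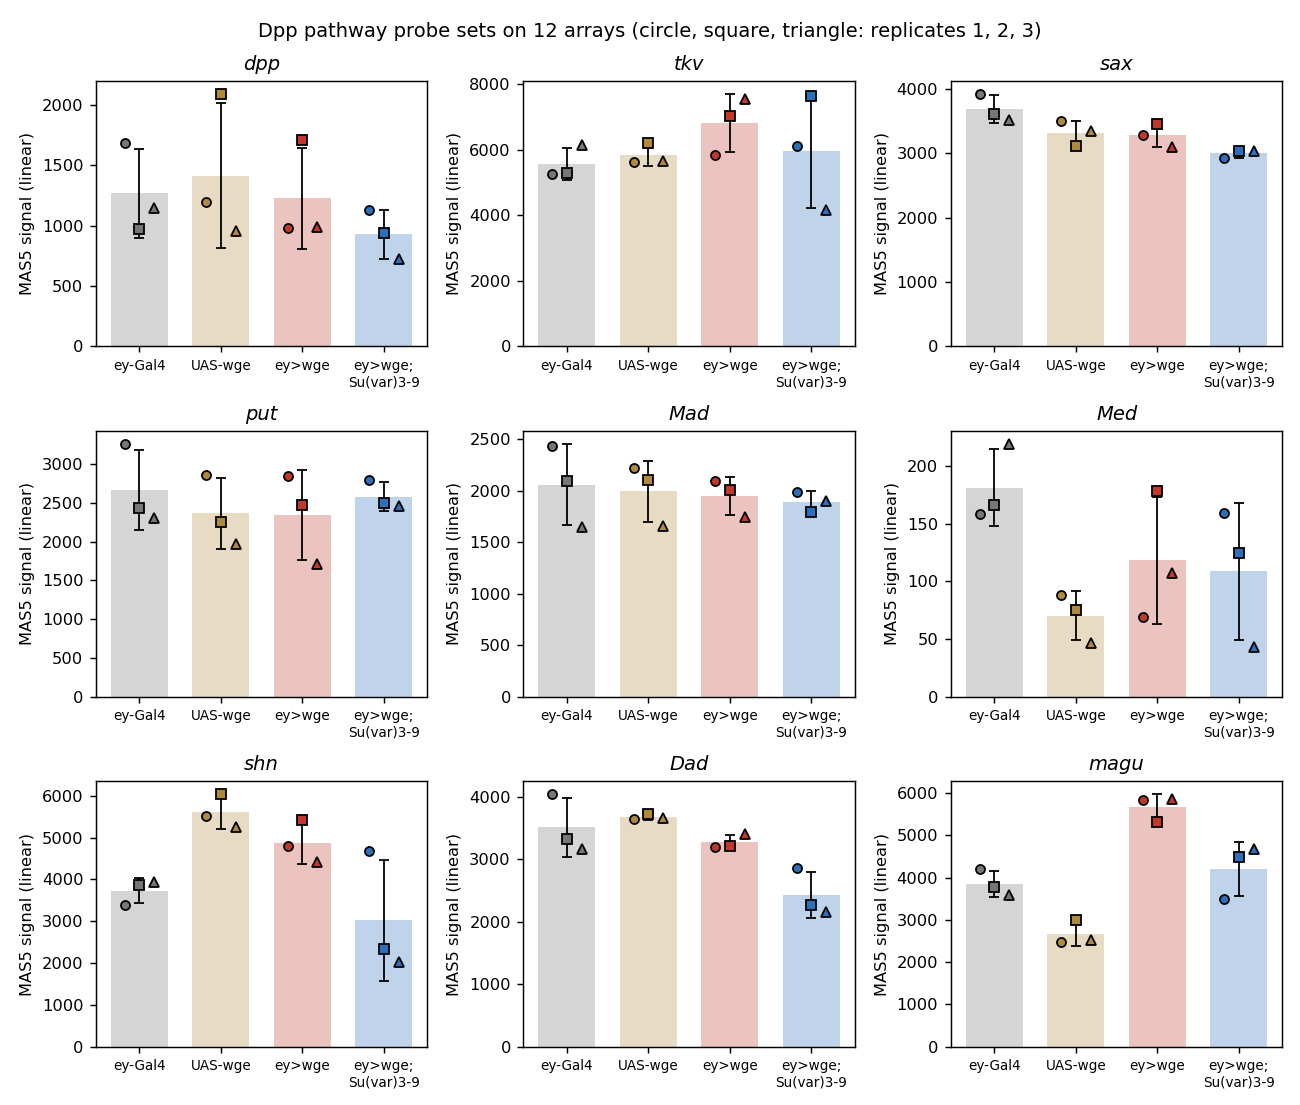
MAS5 signal (linear) of the 9 tested Dpp pathway probe sets in each genotype, with bars for the mean, error bars for the SD (n = 3) and 1 symbol per array. The magu signals in ey>wge (5324 to 5870) lie above all other arrays, Dad is lowest in the 3 allele-pair arrays, and shn reads 2345 and 2035 in 2 allele-pair arrays and 4676 in the third.

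Of the 9 probe sets, magu alone rose in ey>wge discs relative to the mean of the 2 controls, and no member fell. magu, also called pentagone, encodes a secreted protein that in the wing disc is repressed by Dpp signalling and widens the range over which Dpp acts. Its signal (probe set 1641530_s_at) was 4193, 3771 and 3591 in ey-Gal4 discs, 2470, 2994 and 2521 in UAS-wge discs, and 5831, 5324 and 5870 in ey>wge. The 3 ey>wge arrays lay above every array of both controls, and the controls did not overlap with each other. The change against the average of both controls was 0.83 ± 0.11 (adjusted p = 0.000156), a fold of 1.77. The median change was -0.05 over the 9 members and 0.01 over all probe sets tested. magu is 1 of 9 members or 11.1%, where 2.97% of all probe sets changed and 0.897% rose. Arrays without overlap between the sides were found for the same single member, against 7.65% of all probe sets.

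Because the controls differ in magu, each was also used alone. Against UAS-wge magu rose by 1.09 ± 0.13 (adjusted p = 3.35e-05), and this passed in all 24 alternative settings. Against ey-Gal4 the rise was 0.56 ± 0.13 (adjusted p = 0.0192). That call was lost without ey-Gal4 replicate 2 or 3 or ey>wge replicate 1 or 3 (adjusted p = 0.0841, 0.106, 0.0853 and 0.0972), while the change stayed between 0.51 and 0.62 in all 24 settings. In each of these comparisons 1 of 9 members changed, where 3.63% of all probe sets changed against ey-Gal4 and 3.70% against UAS-wge.

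Several marker lists moved with magu in ey>wge. Against both controls 4 of 5 wing disc markers rose, with summed signals of 520 to 739 in ey-Gal4 discs, 383 to 513 in UAS-wge discs, 2968 to 3505 in ey>wge and 665 to 1124 in the allele pair. Of 10 photoreceptor markers 9 fell, from sums of 10961 to 11530 in ey-Gal4 discs and 9297 to 10500 in UAS-wge to 2846 to 3344 in ey>wge and 2556 to 3312 in the allele pair, and 9 of 11 eye-antennal disc markers fell. Of 10 hemocyte markers 7 fell against that average and 8 against UAS-wge alone, while 0 fell against ey-Gal4 alone. Their sums were 3227 to 3887 in ey-Gal4 discs, 11491 to 19045 in UAS-wge discs, 3229 to 3552 in ey>wge and 3122 to 4299 in the allele pair, so that the hemocyte signal of ey>wge lay near that of ey-Gal4. The wing list overlaps with the targets below in vg, and its sixth gene had no single-gene probe set. None of the tested genes of these 4 lists was below the filter. Of 3 tested fat body markers, with low sums of 60.2 to 164 in these 3 genotypes, none passed, and of 3 tested trachea markers 1 rose. The part of these lists in the magu change was not tested.

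The ligand and its receptors did not pass in ey>wge against either control. The ligand gene dpp (1630026_s_at) read 1678, 973 and 1147 in ey-Gal4 discs, 1191, 2090 and 953 in UAS-wge discs, and 982, 1705 and 985 in ey>wge. Within each of these genotypes 1 array stood high, and the 3 genotypes overlapped throughout. Its change against both controls was -0.12 with a 95% interval of -0.61 to 0.38, and changes within that interval are compatible with these values.

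The type I receptor gene tkv (1636221_a_at) read 5269, 5287 and 6139 in ey-Gal4 discs, 5622, 6203 and 5658 in UAS-wge discs, and 5826, 7034 and 7557 in ey>wge. The 2 highest of these arrays were in ey>wge and the third overlapped with the controls, with a change of 0.25 (95% interval -0.06 to 0.56; adjusted p = 0.565). The other type I receptor gene, sax (1633805_a_at), had the narrowest spread of the 9, with a pooled within-genotype SD of 0.0726 on the log2 scale against a median of 0.350 over all probe sets tested. It read 3924, 3606 and 3514 in ey-Gal4 discs, 3493, 3114 and 3339 in UAS-wge discs and 3287, 3449 and 3090 in ey>wge. The ey-Gal4 arrays lay above all others, and the change against both controls was -0.09 (95% interval -0.29 to 0.11). For the type II receptor gene put (1631769_at) the change was -0.11 (95% interval -0.45 to 0.22).

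The signal-transducing Smads did not pass either. Mad (1634683_at) read 2437, 2092 and 1649 in ey-Gal4 discs, 2218, 2106 and 1658 in UAS-wge discs, 2091, 2004 and 1741 in ey>wge and 1991, 1795 and 1896 in the allele pair, and all 4 genotypes overlapped. Its genotype means differed by at most 0.10 on the log2 scale, the smallest range of the 9 members, and the change in ey>wge was -0.05 (95% interval -0.33 to 0.23). Med (1637202_a_at), the shared partner Smad, gave low signals of 43.2 to 219 and the widest spread, a pooled SD of 0.556. Its change against both controls was -0.02, with a 95% interval of -0.71 to 0.68, the widest of the 9.

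put and Mad shared a pattern by replicate number, noticed after the values were seen. put read 3266, 2439 and 2313 in ey-Gal4 discs, 2868, 2260 and 1972 in UAS-wge discs, 2848, 2473 and 1715 in ey>wge and 2798, 2499 and 2457 in the allele pair. Replicate 1 was the highest array of all 4 genotypes for both genes. Replicate 3 was the lowest in 4 genotypes for put and in 3 for Mad. Among all probe sets tested, 2.10% had replicate 1 highest in all 4 genotypes. The correlation of put and Mad over the 12 arrays, a Pearson r of 0.763, was the highest among the 9 members, and the arrays share the genotypes and the replicate numbers. The labels do not say that a replicate number marks a shared day or batch.

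The inhibitory Smad gene Dad, which is induced by Dpp signalling and dampens it, read 4049, 3326 and 3169 in ey-Gal4 discs, 3646, 3732 and 3656 in UAS-wge discs, and 3200, 3220 and 3413 in ey>wge (1633556_s_at). The ey>wge arrays lay below all UAS-wge arrays and among the ey-Gal4 arrays. The change against both controls was -0.13 (95% interval -0.36 to 0.11; adjusted p = 0.758). The cofactor gene shn (1625445_s_at) read 3382, 3863 and 3943 in ey-Gal4 discs, 5515, 6044 and 5254 in UAS-wge discs, and 4805, 5412 and 4422 in ey>wge. The ey>wge signals lay between those of the controls, above all ey-Gal4 arrays, with a change of 0.09 ± 0.18 against their average. Against ey-Gal4 alone the change of 0.38 ± 0.21 did not pass (adjusted p = 0.481). It passed when the fit held these 2 genotypes alone (adjusted p = 0.0471) and without replicate 1 of the allele pair (adjusted p = 0.0437). Without overlap were 3 of 9 members against ey-Gal4 (magu and shn higher, sax lower), where 22.5% of all probe sets did not overlap, and 2 of 9 against UAS-wge (magu higher, Dad lower), where 22.6% did not.

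**Figure D2:**
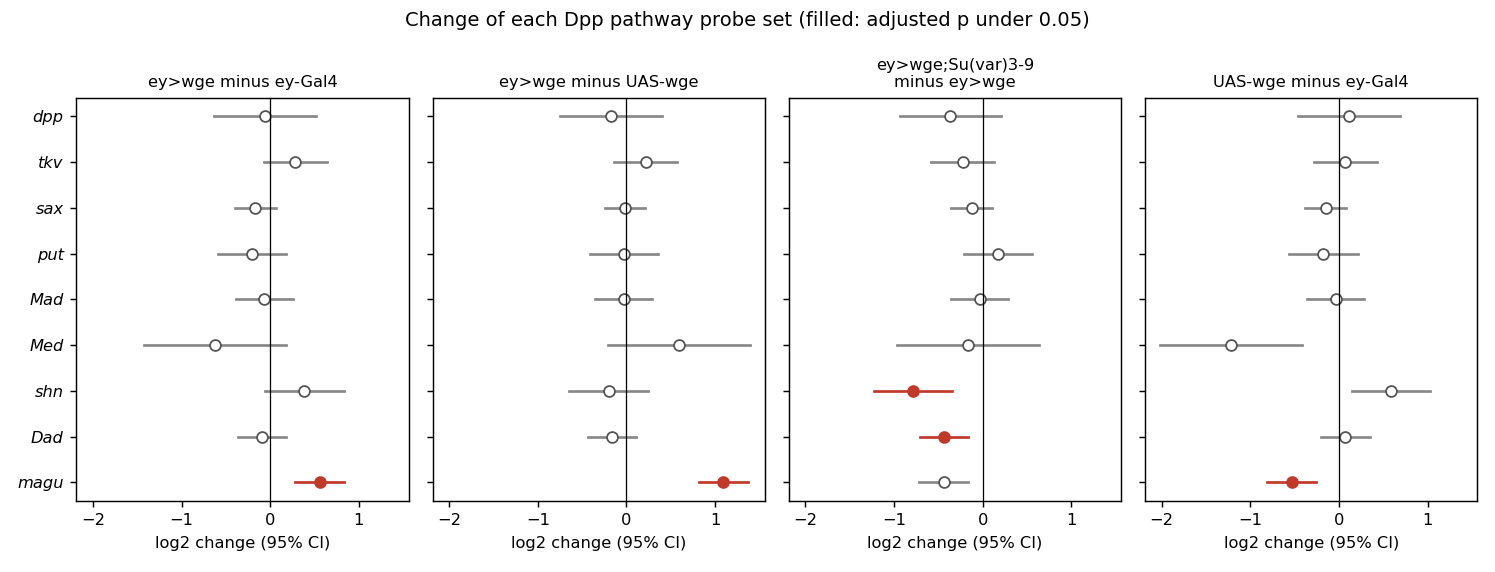
Log2 change of each tested Dpp pathway probe set in 4 comparisons, with 95% confidence intervals of the limma model and filled points for an adjusted p under 0.05. magu lies above 0 against both controls and below 0 between the controls, while shn and Dad lie below 0 in the allele pair against ey>wge.

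In discs with the allele pair, shn and Dad were lower than in ey>wge and magu lay between ey>wge and UAS-wge. Against ey>wge 2 of 9 members changed, both lower, or 22.2%, where 6.80% of all probe sets changed and 4.57% fell. The median change was -0.22 over the 9 members and -0.08 over all probe sets tested. Neither call was reached with replicate 1 alone. shn read 4676 in replicate 1, within the range of the ey>wge arrays, and 2345 and 2035 in replicates 2 and 3, below every array of the other genotypes. Its change was -0.78 ± 0.21 (adjusted p = 0.0319), and -0.06 with replicate 1 alone (adjusted p = 0.912). With the trend on gene span removed from every array it was -0.47 (adjusted p = 0.0689). shn has the longest span of the 9 genes, 58.3 kb.

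Dad read 2855, 2263 and 2165 in the allele pair, and all 3 arrays lay below the lowest array of the other genotypes, 3169. The change against ey>wge was -0.44 ± 0.13 (adjusted p = 0.0484), close to the threshold. With replicate 1 alone it was -0.20 (adjusted p = 0.664), and with the span trend removed -0.17 (adjusted p = 0.423). Leaving out any one array other than ey-Gal4 replicate 1 or allele-pair replicate 1 ended the Dad call, with adjusted p-values from 0.0597 to 0.174. The shn call ended without any one of the 3 ey>wge arrays or without allele-pair replicate 2 or 3 (adjusted p = 0.0659 to 0.154).

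magu read 3484, 4478 and 4668 in the allele pair, below all 3 ey>wge arrays and above all 3 UAS-wge arrays. Replicate 1 lay under the ey-Gal4 arrays and the other two above them. The change against ey>wge of -0.44 ± 0.13 just missed the threshold (adjusted p = 0.0503). It was -0.70 with replicate 1 alone (adjusted p = 0.0207) and -0.52 without replicate 3 (adjusted p = 0.0449). Quantile normalization, the stricter filter and array weights also took it past the threshold (adjusted p = 0.0173, 0.0379 and 0.00625), while with the span trend removed it was -0.18 (adjusted p = 0.601). Of the 3 members whose arrays did not overlap with ey>wge (sax, Dad and magu, all lower), sax differed by the least, -0.12 ± 0.11, and 22.3% of all probe sets did not overlap.

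**Figure D3:**
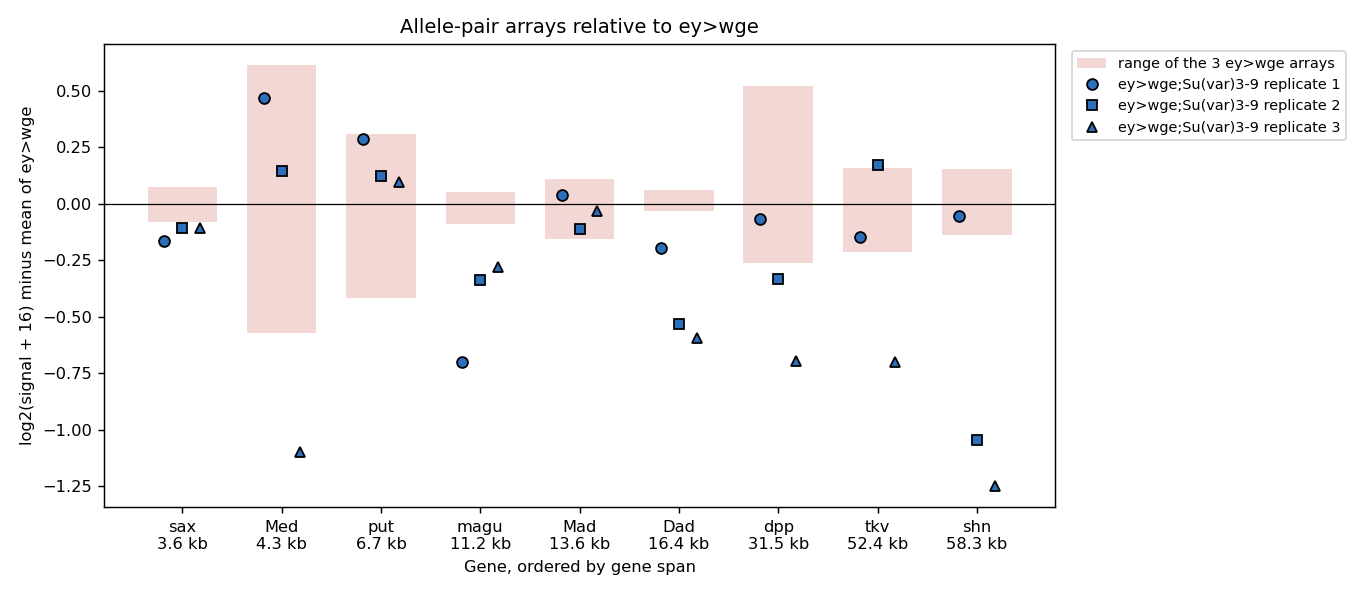
Difference of each allele-pair array from the mean of ey>wge, in log2(signal + 16), for the 9 genes ordered by gene span, with the range of the 3 ey>wge arrays shaded. Replicates 2 and 3 lie at -1.05 and -1.25 for shn (58.3 kb), where replicate 1 lies at -0.06. For magu (11.2 kb) replicate 1 lies lowest of the 3, at -0.70.

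The part of gene span in the changes of the other members was not tested. tkv, at 52.4 kb nearly as long as shn, read 6116, 7628 and 4153 in the allele pair, which includes both its highest and its lowest array of the series. Its change was -0.22 ± 0.17 (adjusted p = 0.47). dpp, at 31.5 kb, read 1129, 935 and 724, and its lowest array of all was replicate 3 of the allele pair (change -0.36 ± 0.27, adjusted p = 0.468). The changes of put (0.17 ± 0.18), Mad (-0.04 ± 0.15) and Med (-0.16 ± 0.38) did not pass. Relative to the mean of ey>wge 6 of 9 members were lower in replicate 1, 6 in replicate 2 and 8 in replicate 3. The median over all probe sets tested lay at -0.00 in replicate 1 and at -0.10 and -0.13 in replicates 2 and 3.

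Against the average of both controls the allele pair changed in 3 of 9 members, or 33.3%, where 21.1% of all probe sets changed, with a median of -0.18 over the members. Of the 2920 called, 1169 were higher and 1751 lower, and 52.9% were higher with the arrays centred on their medians, a scaling that moved the median change of all probe sets from -0.08 to 0.04. Dad was lower, with a change of -0.57 ± 0.11 (adjusted p = 0.00152), as was shn, at -0.69 ± 0.18 (adjusted p = 0.0111). magu was higher by 0.39 ± 0.11 (adjusted p = 0.0205). For magu that average includes the low UAS-wge arrays, and the allele-pair arrays overlapped with those of ey-Gal4. Its mean log2 value was 12.03 with the allele pair, 11.91 for ey-Gal4 and 11.38 for UAS-wge. The allele pair was not tested against each control alone. The calls of shn and magu were lost without allele-pair replicate 2 (adjusted p = 0.0891 and 0.113) or 3 (adjusted p = 0.0993 and 0.11). With replicate 1 alone shn stood at 0.04, Dad at -0.33 and magu at 0.13, and none passed (adjusted p = 0.921, 0.215 and 0.683). With the span trend removed Dad and shn also lost their calls (-0.27 and -0.32, adjusted p = 0.0638 and 0.094), and tkv passed as higher (0.40, adjusted p = 0.0449), as it did with array weights (adjusted p = 0.00798). The arrays did not overlap for Dad and sax, 2 of 9 members against 15.5% of all probe sets. The comparisons of the allele pair with ey>wge and with the controls share the allele-pair arrays.

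Marker lists also moved with the allele pair. Against ey>wge, where 6.80% of all probe sets changed and 4.57% fell, 4 of 5 muscle markers fell. Their sums were 2593 to 6002 in ey-Gal4 discs, 1438 to 2168 in UAS-wge discs, 2947 to 3764 in ey>wge and 958 to 1772 in the allele pair. Of 5 tested glia markers 3 fell, with sums over the list of 3825 to 4153, 3621 to 3701, 2798 to 3792 and 1263 to 2227 in the same order, and gcm was the glia marker below the filter. The wing disc markers fell in 4 of 5. Against the average of the controls, 10 of 10 photoreceptor, 9 of 11 eye-antennal, 5 of 10 hemocyte, 4 of 5 glia and 3 of 5 muscle markers were lower in the allele pair. The hemocyte sums of the allele pair, 3122 to 4299, lay near those of ey-Gal4 (3227 to 3887) and below those of UAS-wge (11491 to 19045). Against that average 21.1% of all probe sets changed. There 3 of 5 wing disc markers were higher and 1 lower, 1 of 3 trachea markers was higher, and so were 2 of 3 fat body markers, with sums of 60.2 to 104 in ey-Gal4, 64.3 to 129 in UAS-wge and 124 to 663 in the allele pair. The part of these lists in the changes of shn, Dad and magu was not tested.

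Between the parental lines, magu was the member that changed, lower in UAS-wge than in ey-Gal4 with a change of -0.53 ± 0.13 (adjusted p = 0.0193), 1 of 9 where 4.99% of all probe sets changed. The call was lost without ey-Gal4 replicate 1 or 2 or UAS-wge replicate 1 or 3 (adjusted p = 0.0968, 0.0612, 0.102 and 0.0936). Med read 158, 166 and 219 in ey-Gal4 and 88.3, 75.3 and 46.7 in UAS-wge without overlap, the largest difference of the 9 at -1.22 ± 0.38, but did not pass (adjusted p = 0.0849). It passed with only the 6 arrays of the 2 lines (adjusted p = 0.013) and without replicate 1 or 3 of the allele pair (adjusted p = 0.039 and 0.0203). shn was 0.59 ± 0.21 higher in UAS-wge (adjusted p = 0.154), and it passed with only the 6 arrays (adjusted p = 0.00185) and without allele-pair replicate 1 (adjusted p = 0.00141). Without overlap were 4 of 9 members (shn higher; sax, Med and magu lower), where 22.5% of all probe sets did not overlap. Of 10 hemocyte markers 8 were higher in UAS-wge, and 2 of 5 muscle markers and 1 of 10 photoreceptor markers were lower. Their part in these differences was not tested.

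For each member that changed in any comparison, the single-gene probe sets with the closest pattern over the 12 arrays were listed. For magu these were Taf12L, nub and Ama, with a Pearson r of 0.922, 0.921 and 0.921. nub, a wing transcription factor gene of the wing marker list, had mean signals of 198 in ey-Gal4 discs, 126 in UAS-wge discs, 833 in ey>wge and 249 in the allele pair. For Dad they were rn, Plp and jvl (r = 0.975, 0.966 and 0.965), and for shn Ten-a, cora and H (r = 0.966, 0.962 and 0.956). rn is on the wing marker list but did not rise in ey>wge with the other markers of that list. Its mean signals were 132 in ey-Gal4 discs, 123 in UAS-wge discs, 79.4 in ey>wge and 33.8 in the allele pair. The correlations are over 12 arrays that share 4 genotypes, and for Dad and shn the low arrays of the allele pair are among them. Between members, shn and Dad had an r of 0.757 and magu and shn one of -0.353.

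Of the other genes of the pathway, grouped in 6 lists, the ligands and extracellular modulators were measured on 7 tested genes. In ey>wge none of them passed against both controls (1 at an unadjusted p under 0.05 in the limma fit), and their median change was 0.04 beside 0.01 over all probe sets tested. gbb, the second BMP ligand of the disc, read 2866 ± 519 in ey-Gal4 discs, 2598 ± 344 in UAS-wge discs and 2790 ± 287 in ey>wge (SD, n = 3), a change of 0.04 ± 0.13. The glypican gene dlp, whose product binds ligands at the cell surface, read 3256 ± 215, 3020 ± 474 and 3863 ± 232, and its ey>wge arrays lay above both controls (0.30 ± 0.14, adjusted p = 0.392). In the allele pair against the controls tok, a protease gene, and ltl were lower (-0.43 ± 0.13 and -1.36 ± 0.30, adjusted p = 0.0254 and 0.00311), and with replicate 1 alone neither passed (-0.05 and -0.78). The tok call was lost without allele-pair replicate 2 or 3 or UAS-wge replicate 2 (adjusted p up to 0.179), and with the span trend removed tok (29.4 kb) stood at -0.09 (adjusted p = 0.567). tok and ltl are 2 of 7 tested genes, where 21.1% of all probe sets changed in that comparison.

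Among 8 tested receptor and Smad regulators none passed in ey>wge against both controls (3 at an unadjusted p under 0.05). wit, a type II receptor gene, was lower than in ey-Gal4 both in UAS-wge (-0.66 ± 0.17, adjusted p = 0.0262) and in ey>wge (-0.83 ± 0.17, adjusted p = 0.00678), with 2321 ± 156, 1471 ± 179 and 1301 ± 81.2 in ey-Gal4, UAS-wge and ey>wge. The first of these calls was lost without any one of the 6 arrays of the 2 lines, with an adjusted p of up to 0.154. Snoo, the fly gene of the Ski/Sno co-repressors, read 269 ± 82.4 in ey-Gal4 discs, 1210 ± 194 in UAS-wge discs and 939 ± 173 in ey>wge on its brightest probe set, and was higher than in ey-Gal4 by 2.14 ± 0.26 and 1.77 ± 0.26 (adjusted p = 3.37e-05 and 0.000376). Its other 2 probe sets did not pass (adjusted p = 0.987 and 0.991 between the lines). Sara, whose product brings Smads to the receptors, was lower in the allele pair than in ey>wge, with a change of -0.93 ± 0.21 (adjusted p = 0.0145). It read 882, 517 and 749 in ey>wge and 454, 358 and 288 in the allele pair, without overlap. The change was -0.61 with replicate 1 alone (adjusted p = 0.364), and the call was lost without ey>wge replicate 1 or 3 or allele-pair replicate 2 or 3 (adjusted p up to 0.0893). Against the controls the allele pair had lower wit and Sara and higher Fkbp12, whose product binds type I receptors (0.47 ± 0.09, adjusted p = 0.00178), and none of the 3 passed with replicate 1 alone (-0.24, -0.31 and 0.33). Sara also did not pass with the span trend removed (adjusted p = 0.0645). wit read 1179 ± 339 in the allele pair, and its arrays there overlapped with those of UAS-wge. wit, Sara and Fkbp12 are 3 of 8 tested genes, where 21.1% of all probe sets changed against the controls.

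None of 6 genes passed in ey>wge against the controls' average in the Activin branch, the parallel TGF-beta pathway with its own ligands, receptor and Smad (1 had an unadjusted p under 0.05 in the limma fit). The ligand gene Actbeta was high in UAS-wge alone, with 234.6 ± 64.4 against 49.9 ± 13.7 in ey-Gal4, 49.6 ± 10.1 in ey>wge and 38.4 ± 12 in the allele pair. Its change between the lines was 1.92 ± 0.31 (adjusted p = 0.000567). In the allele pair against the average of the controls 4 of the 6 were lower, Actbeta, myo, the type I receptor gene babo and the Smad gene Smox, where 21.1% of all probe sets changed, with a median of -0.54 beside -0.08 over all probe sets tested. For Actbeta that average includes the high UAS-wge arrays, and the allele-pair arrays overlapped with those of ey-Gal4. With replicate 1 alone none of the 4 passed, and their changes then stood at -1.31 for Actbeta (adjusted p = 0.064), -0.19 for myo, -0.24 for babo and -0.13 for Smox, where all 3 replicates gave -1.24, -0.67, -0.90 and -0.41. With the span trend removed myo and Smox did not pass (-0.46 and -0.21, adjusted p = 0.0793 and 0.134). The Smox call was lost without allele-pair replicate 2 or 3, and the myo call without these or ey-Gal4 replicate 1 or UAS-wge replicate 1 (adjusted p up to 0.109 and 0.138).

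**Figure D4:**
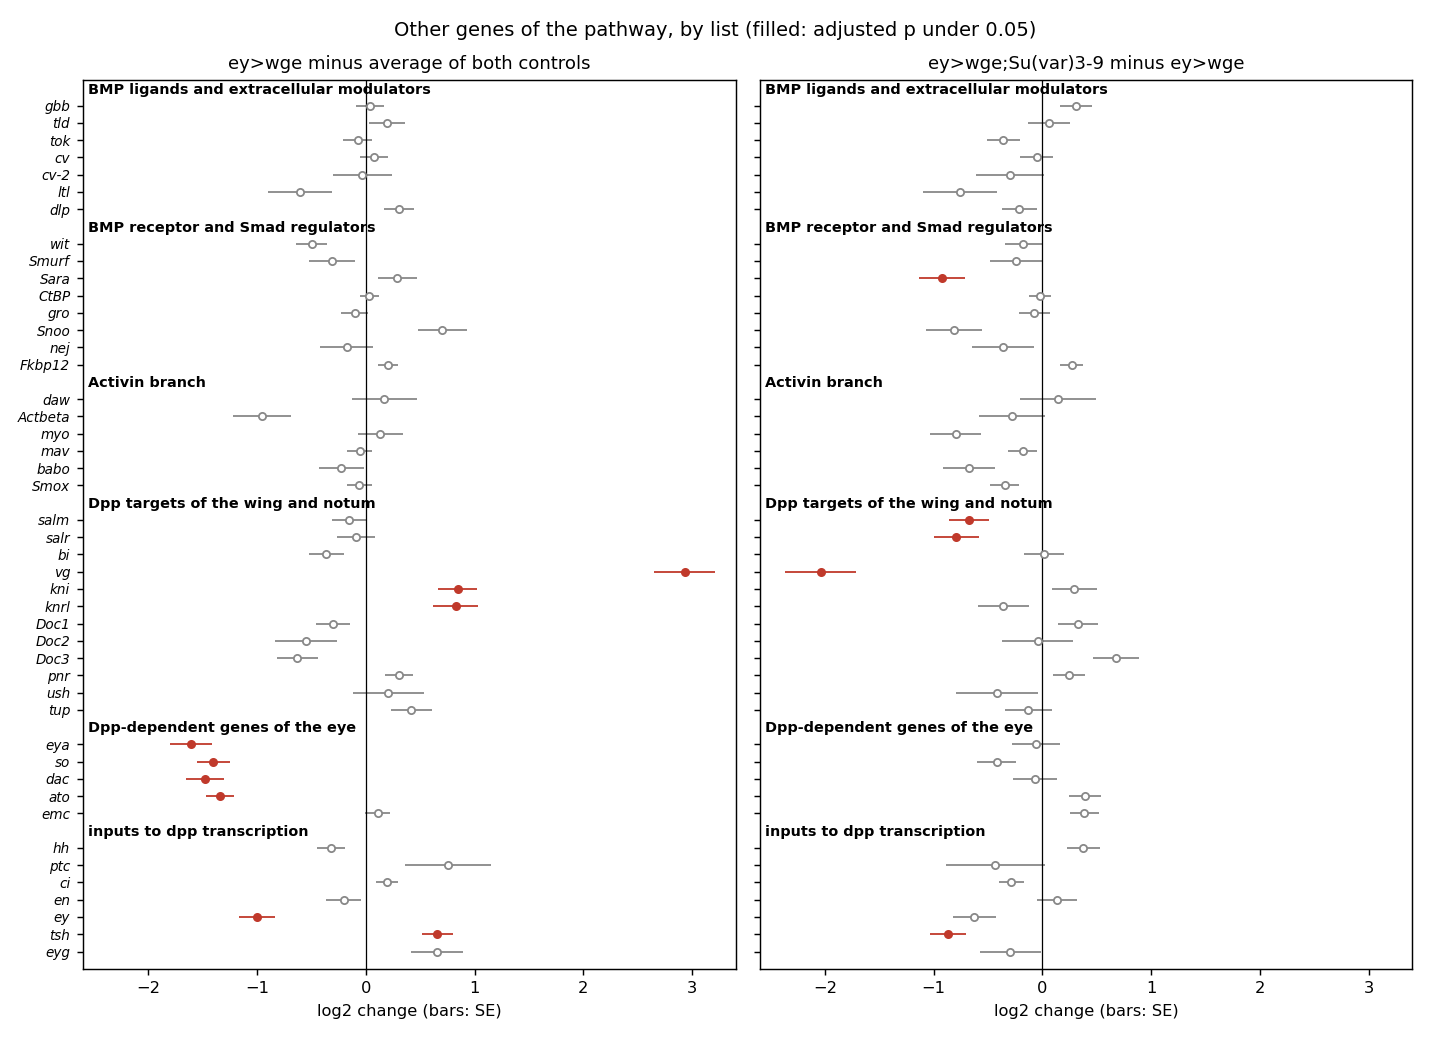
Log2 change and SE of the tested genes of the 6 pathway lists in ey>wge against the mean of the 2 controls and in the allele pair against ey>wge, with filled points for an adjusted p under 0.05. In the left panel vg, kni, knrl and tsh lie above 0 and eya, so, dac, ato and ey below; in the right panel Sara, salm, salr, vg and tsh lie below 0.

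Of 12 Dpp targets known from the wing and notum, 3 rose in ey>wge against the average of the controls and 9 did not pass. An unadjusted p under 0.05 in the limma fit was found for 7 of the 12. Beside the 3 that rose, these were pnr (0.31) and tup (0.42), higher, and bi (-0.36) and Doc3 (-0.63), lower. The Doc3 arrays of ey>wge lay below all control arrays (adjusted p = 0.0898). The median change of the list was 0.06 beside 0.01 over all probe sets tested. Of all probe sets 2.97% changed and 0.897% rose. vg, the wing selector gene, rose by 2.93 ± 0.28 (adjusted p = 3.51e-06). Its signal was low in the controls, with 30.4 ± 15.4 in ey-Gal4 discs and 42.2 ± 8.93 in UAS-wge discs, against 377 ± 89.8 in ey>wge. The size of the vg change ranged from 2.13 to 3.42 over the alternative settings, and it passed in all of them. kni and knrl, zinc-finger genes that place a wing vein, rose by 0.84 ± 0.18 and 0.83 ± 0.20 (adjusted p = 0.0114 and 0.0314). kni read 236 ± 45.4 in ey-Gal4 discs, 314 ± 31.3 in UAS-wge discs and 505 ± 99.4 in ey>wge, and knrl 232 ± 9.77, 292 ± 45.7 and 475 ± 77.7. Against UAS-wge alone kni and knrl did not pass (adjusted p = 0.125 and 0.167), while vg passed against each control. The kni call against the average was lost without ey>wge replicate 1 or 3 and the knrl call without any one of 8 arrays, up to an adjusted p of 0.116 and 0.226. The classical Dpp targets of the wing blade did not pass: salm was at 1448 ± 116, 1305 ± 152 and 1235 ± 88.2, salr at 443 ± 91.6, 363 ± 64.4 and 376 ± 70.9, and bi (omb) at 1799 ± 152, 2021 ± 431 and 1486 ± 300.1 in ey-Gal4, UAS-wge and ey>wge.

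In the allele pair against ey>wge 3 of these 12 targets fell, with changes of -0.68 ± 0.18 for salm, -0.79 ± 0.20 for salr and -2.04 ± 0.32 for vg (adjusted p = 0.0324, 0.0273 and 0.00126). Of all probe sets 6.80% changed and 4.57% fell in that comparison. salm read 1337, 1179 and 1189 in ey>wge and 984, 847 and 535 in the allele pair, and salr 349, 324 and 457 against 223, 191 and 212. Neither gene overlapped between the genotypes. With replicate 1 alone salm was at -0.32 and salr at -0.70, and neither passed (adjusted p = 0.492 and 0.305), while vg passed at -1.88 (adjusted p = 0.0407). With the span trend removed salm and salr did not pass (adjusted p = 0.1 and 0.156). The salm and salr calls also ended without any one ey>wge array or without allele-pair replicate 2 or 3 (adjusted p up to 0.136 and 0.133). Against the controls both were lower as well (-0.83 ± 0.16 and -0.88 ± 0.18, adjusted p = 0.00118 and 0.00185), and these calls held without any single array. Of all probe sets 21.1% changed against the controls. There vg (0.89 ± 0.28), kni (1.14 ± 0.18) and the notum gene pnr (0.55 ± 0.13) were higher (adjusted p = 0.0301, 0.000291 and 0.00522). A second vg probe set did not pass (0.42, adjusted p = 0.524), and the vg call was lost without ey-Gal4 replicate 1, UAS-wge replicate 3 or allele-pair replicate 1 or 2 (adjusted p up to 0.155). With replicate 1 alone none of these 5 calls was reached, at changes of -0.47 for salm, -0.79 for salr, 1.05 for vg, 0.80 for kni and 0.54 for pnr (adjusted p = 0.11, 0.0929, 0.182, 0.0778 and 0.115).

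Of 5 tested genes that depend on Dpp in the eye disc, eya, so, dac and ato fell in ey>wge against both controls, with changes of -1.61, -1.40, -1.48 and -1.34, and emc did not pass (0.11 ± 0.12). Of all probe sets 2.97% changed. eya, so and dac are also on the eye-antennal marker list and ato on the photoreceptor list, so these falls are among those counted above for the 9 of 11 and 9 of 10 markers. None of the 5 passed in the allele pair against ey>wge (3 at an unadjusted p under 0.05). emc, an inhibitor of proneural factors, read 15855 ± 1851 in ey>wge and 20771 ± 3062 in the allele pair, and was higher there than in the controls by 0.49 ± 0.12 (adjusted p = 0.00593). It did not pass with replicate 1 alone (adjusted p = 0.458) or without replicate 2 (adjusted p = 0.0586). eya, so, dac and ato were lower than in the controls there as well, where 21.1% of all probe sets changed. With replicate 1 alone their changes were -1.60, -1.41, -1.24 and -1.22.

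The inputs to dpp transcription were measured on 7 genes. ey, also an eye-antennal marker, fell in ey>wge against the average of the controls (-0.999 ± 0.169, adjusted p = 0.00137). The ey call against ey-Gal4 alone (-0.82, adjusted p = 0.0227) was lost without any one of 5 arrays (adjusted p up to 0.159). Its call against UAS-wge alone held without any single array. In the allele pair ey was lower than in the controls as well (-1.63 ± 0.17, adjusted p = 2.67e-06), where 21.1% of all probe sets changed. That call held without any single array, and the change was -1.42 with replicate 1 alone. Against ey>wge the change of ey in the allele pair was -0.63 ± 0.20, without overlap, and did not pass (adjusted p = 0.0622). tsh, a zinc-finger gene of the proximal disc, rose in ey>wge against the average of the controls (0.66 ± 0.14, adjusted p = 0.0114). tsh passed against UAS-wge alone (adjusted p = 0.0133) and not against ey-Gal4 alone (0.58, adjusted p = 0.0588). tsh read 1486, 1164 and 1331 in ey-Gal4 discs, 1154, 1198 and 1225 in UAS-wge discs, 1956, 2076 and 1936 in ey>wge and 1321, 1195 and 797 in the allele pair, so the ey>wge arrays stood above all others. Against ey>wge it fell in the allele pair, with a change of -0.87 ± 0.16 (adjusted p = 0.00465; -0.58 and adjusted p = 0.0931 with replicate 1 alone). The rise was lost without any one ey>wge array (adjusted p up to 0.0823). hh, the signal that induces dpp in the eye and wing, read 1231 ± 193, 1115 ± 162 and 926 ± 13.5 in ey-Gal4, UAS-wge and ey>wge and did not pass (-0.32 ± 0.13, adjusted p = 0.3). Its mediator ci (0.20 ± 0.10) and the posterior gene en did not pass either.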

How the data were processed

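RNA from eye-antennal discs of 4 genotypes was measured on 12 Affymetrix arrays, 3 per genotype, from 100 ng of total RNA each. The authors deposited 1 linear signal intensity for each probe set of each array, made with MAS5 per the submitters' processing notes, which give neither its version nor its settings. After 2% of probe sets were left out at each end, every array had a mean of 500.01 to 500.02, so the authors' values were already scaled. No scan date is recorded and no batch could be modelled.

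Signals were analysed as log2(signal + 16) without further normalization. Probe sets above their array's 40th percentile on at least 3 arrays were tested, without 183 control probe sets. Gene names came from the platform annotation, with symbols updated through the supplied gene table (Release 6 plus ISO1 MT), which also gave gene spans. Of the probe sets tested 10812 had 1 symbol, 324 several and 2681 none. A probe set that names shn with another gene was left out. dpp, shn, Dad and magu have _s_at probe sets, a type that can match more than one transcript. One mean per genotype was fitted to all arrays with limma 3.58.1 in R 4.3.3 (eBayes with trend, two-sided, Benjamini-Hochberg over all 13817 probe sets), and the script was tested on simulated data. The arrays per genotype limit the precision.

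The members and gene lists were chosen with earlier results of these data known. All member probe sets are reported. A list gene is counted on its probe set of highest mean, and up to 4 genes past the test are named per list and comparison by smallest adjusted p, with members that did not pass named for their role. In the lists, scw, tsg and srw were below the filter, and sog, dally, nmo, h, hth and wg had no single-gene probe set. Over all probe sets tested, same-numbered replicates deviated together with correlations of -0.0485 to 0.0833, and differently numbered ones with -0.0635 to 0.0600. The main fit did not pair the arrays. A shared day or batch that acts on some genes was not tested. Alternatives were a filter at the 60th percentile or none, a pseudocount of 1 or 64, arrays centred on their medians, quantile normalization, no variance trend, array weights, a replicate block, leaving out each array, only the groups compared, a threshold of 0.01, removal of the trend on gene span, and replicate 1 of the allele pair alone.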

Additional observations from a re-analysis of the deposited data

How the results depend on the processing

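In ey>wge discs, the rise of magu over the control mean and over UAS-wge passed in all alternatives. Over ey-Gal4 alone the rise passed in 17 of 24 settings and did not pass in 7. Of the member changes recomputed, 1236 stayed on their side of the threshold, 55 lost their call, 22 gained one and 1 called change turned its sign: shn in the allele pair against the controls was 0.0353 with replicate 1 alone. The cause was not tested. Changes that were not called also turned sign in some settings, for example Med in the allele pair against ey>wge (-0.48 to 0.47) and dpp in ey>wge against the controls (-0.38 to 0.04).

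Counts of members and of list genes past the test in the comparisons not named here stayed within 1.5 times their value. For ey>wge against ey-Gal4 the count of 1 was 0 without a variance trend, at the threshold of 0.01 and with the span trend removed, and 2 with only the 2 groups, and it ranged from 0 to 2 over left-out arrays. For the allele pair against ey>wge the count of 2 was 1 with centred arrays and without a filter. It was 0 without a variance trend, at 0.01, with the span trend removed and with only the 2 groups, ranging from 0 to 2 over left-out arrays. Quantile normalization, the 60th percentile filter and array weights added magu to the 2. With replicate 1 alone the changes were -0.06 for shn, -0.20 for Dad and -0.70 for magu, so the largest was in a gene outside the 2. Against the controls the 3 became 1 without a variance trend and at 0.01, 6 with array weights and 0 with replicate 1 alone, ranging from 1 to 3. Between the parental lines the 1 became 0 without a variance trend and at 0.01, 2 with the span trend removed, and 3 with array weights or only the 2 groups, ranging from 0 to 3.

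For the pathway lists, the 5 genes of the allele pair against ey>wge became 3 with centred arrays, 8 with the 60th percentile filter, 2 without a variance trend, at 0.01 and with only the 2 groups, 22 with array weights, 10 with the replicate block and 1 with replicate 1 alone, ranging from 2 to 19 over left-out arrays. Against the controls the 20 became 6 with replicate 1 alone. The replicate block left the member counts at 1, 1, 1, 2, 3 and 1. The count over all probe sets tested moved for the allele pair against ey>wge from 939 to 173 with replicate 1 alone and 4409 with array weights. Against the controls it went from 2920 to 657 and 6454 in these settings. For ey>wge it ranged from 250 to 722 around 410 against both controls, 299 to 845 around 502 against ey-Gal4 and 329 to 899 around 511 against UAS-wge, and between the parental lines from 457 to 1027 around 690, each at the 0.05 threshold.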
